A study of Homo sapiens with 2 samples.

Results

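To describe RFX6 peaks at genes that drive cell division, 60 cell cycle and mitosis genes were looked up in the ChIP-seq peak list of MHCC-97H cells overexpressing HA-tagged RFX6 (RFX6-OE). The genes were picked by function, with earlier results of these data known, as cyclins, cyclin-dependent kinases (CDKs) and their inhibitors, E2F and pocket proteins, the anaphase complex and mitotic kinases. All 60 were found among 20037 protein-coding genes of the RefSeq table. They were divided by textbook function into 23 genes of the G1/S transition, 32 mitotic genes and 5 genes that belong to neither phase alone. MHCC-97H is a human hepatocellular carcinoma (HCC) cell line, and RFX6 is a DNA-binding protein of the regulatory factor X family. The HA tag was used for precipitation, and the protein came from an overexpression plasmid. The series holds 1 HA-RFX6 ChIP library and 1 input library of the same cell line, and the values below come from the single ChIP library, without replicates. A peak list carries no expression, so the identity of the cells could not be checked against marker genes.

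The cell cycle is driven by CDKs, which act when bound to cyclins. In G1, cyclin D with CDK4 or CDK6 and cyclin E with CDK2 phosphorylate pocket proteins, which releases E2F factors and opens the way to DNA synthesis. Mitosis begins when CDK1 with cyclin B is freed from inhibitory phosphorylation, the spindle checkpoint holds the anaphase complex back until chromosomes are attached, and the complex then marks cyclin B for destruction. Many G1/S promoters carry E2F sites, whereas many mitotic promoters carry CCAAT boxes and a cell cycle homology region.

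The list held 5019 distinct intervals outside the mitochondrial genome. Their deposited score, whose meaning is not stated, had a median of 30 and quartiles of 22 and 39. Read depth was unknown. Although the submitters' processing notes name GRCh37, the coordinates matched GRCh38, since 60.8% of intervals were centred within 1 kb of a coding gene end of GRCh38, whereas shifting every interval by 20 kb left 7.65% (towards lower coordinates) and 8.11% (towards higher). All positions are therefore given in GRCh38.

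The promoter bases that the results turn on are shown for 6 genes, chosen to set G1/S against mitotic promoters with an interval at the start. Each run gives the 250 bases before the annotated start, 5′ to 3′ on the gene's strand, from RefSeq (GRCh38.p14). Capitals mark E2F sites (TTTGGCGC, TTTCCCGC or TTTCGCGC), CCAAT boxes, the cell cycle homology region (TTTGAA) and the arm of the X-box (GTTGCC), which is the element bound by RFX proteins, on either strand. CDC25A lies at chr3:48188418-48188667 (minus strand), E2F1 at chr20:33686386-33686635 (minus), CDK4 at chr12:57752311-57752560 (minus), CCNB1 at chr5:69166900-69167149 (plus), KIF23 at chr15:69414099-69414348 (plus) and PRC1 at chr15:90994536-90994785 (minus).
CDC25A: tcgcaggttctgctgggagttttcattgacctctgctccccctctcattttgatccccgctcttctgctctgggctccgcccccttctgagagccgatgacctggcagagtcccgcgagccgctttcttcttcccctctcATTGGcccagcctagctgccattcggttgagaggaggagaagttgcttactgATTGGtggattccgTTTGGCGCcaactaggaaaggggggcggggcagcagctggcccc
E2F1: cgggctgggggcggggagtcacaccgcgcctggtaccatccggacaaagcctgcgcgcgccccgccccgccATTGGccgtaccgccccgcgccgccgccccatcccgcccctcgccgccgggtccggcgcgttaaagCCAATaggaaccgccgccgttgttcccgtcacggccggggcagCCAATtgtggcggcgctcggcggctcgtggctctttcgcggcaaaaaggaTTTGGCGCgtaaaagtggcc
CDK4: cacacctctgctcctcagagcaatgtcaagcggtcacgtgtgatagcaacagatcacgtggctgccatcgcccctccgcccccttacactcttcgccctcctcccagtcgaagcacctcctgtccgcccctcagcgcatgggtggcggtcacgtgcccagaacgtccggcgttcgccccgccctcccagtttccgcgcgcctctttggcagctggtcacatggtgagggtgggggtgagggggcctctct
CCNB1: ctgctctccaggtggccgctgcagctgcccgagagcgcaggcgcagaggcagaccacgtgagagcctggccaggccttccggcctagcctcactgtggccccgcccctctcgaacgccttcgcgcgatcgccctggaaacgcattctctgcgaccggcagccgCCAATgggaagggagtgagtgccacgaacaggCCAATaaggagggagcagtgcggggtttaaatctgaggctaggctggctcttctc
KIF23: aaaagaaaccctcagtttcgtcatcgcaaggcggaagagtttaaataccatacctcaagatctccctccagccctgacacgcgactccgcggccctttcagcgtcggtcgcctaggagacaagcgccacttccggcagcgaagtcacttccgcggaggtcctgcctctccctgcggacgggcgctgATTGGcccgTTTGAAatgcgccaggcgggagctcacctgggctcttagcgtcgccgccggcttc
PRC1: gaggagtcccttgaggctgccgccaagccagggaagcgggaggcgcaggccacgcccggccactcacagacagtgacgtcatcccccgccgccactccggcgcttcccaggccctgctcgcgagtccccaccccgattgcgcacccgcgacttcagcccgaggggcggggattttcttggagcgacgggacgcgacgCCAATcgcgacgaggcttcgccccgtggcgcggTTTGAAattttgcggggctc

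In these runs, the E2F site of CDC25A began 44 bp before the start and that of E2F1 20 bp before it. KIF23 and PRC1 had a CCAAT box followed by a cell cycle homology region, at 64 and 55 bp before the start in KIF23 and at 53 and 20 bp in PRC1. CCNB1 had 2 CCAAT boxes, at 87 and 55 bp. The CDK4 run held none of the letters searched. The interval covered 250 of the 250 bases at CDK4, 219 at KIF23, 200 at PRC1 and 168 at CCNB1, but 0 at CDC25A and E2F1, where it lay inside the gene.

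An interval was counted at a gene end when its midpoint lay within 1 kb of either end of the gene, and in the body when it lay inside the gene but farther from both ends. By this rule, 20 of the 60 genes had an interval at an end, which was 33.3% (95% Wilson interval 22.7% to 45.9%). Among all 20037 protein-coding genes, the share was 15.5% (3100 genes). The interval covers the counting of genes only, and no test was made, since genes of 1 library are not replicates. When every interval was shifted by 20 kb, 4 (lower coordinates) and 3 (higher coordinates) of the 60 genes were left with one. When the body was added, 25 genes had an interval (41.7%, 30.1% to 54.3%), compared with 19.5% of all protein-coding genes. The remaining 35 genes had none. After the same shifts by 20 kb, 22 (lower coordinates) and 10 (higher coordinates) of the 60 genes had an interval at an end or in the body. The count with the body was thus less tied to position than the count at ends.

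**Figure D1:**
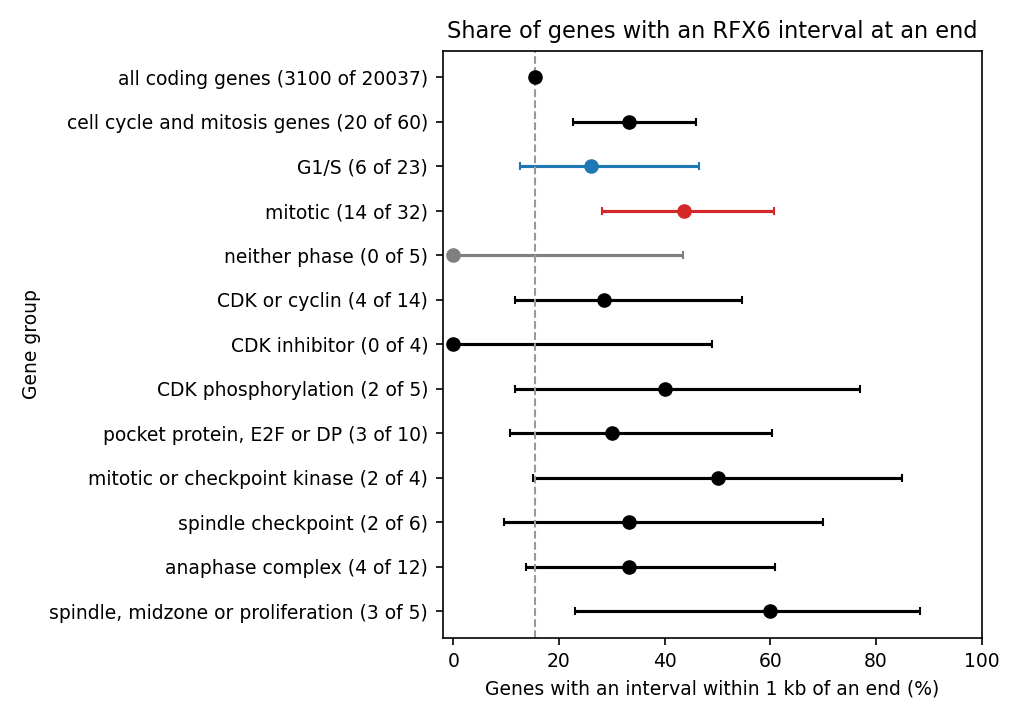
Share of genes with an interval within 1 kb of an end, in percent, by phase and by function. Points are shares, bars are 95% Wilson intervals over genes, and the dashed line is the share of all protein-coding genes. The 60 genes were at 33.3%, the mitotic genes at 43.8% and the G1/S genes at 26.1%, with overlapping bars.

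The G1/S and mitotic genes were then compared. At gene ends, 14 of 32 mitotic genes (43.8%, 28.2% to 60.7%) and 6 of 23 G1/S genes (26.1%, 12.5% to 46.5%) had an interval. The difference was 17.7 percentage points, with a 95% Newcombe interval from -8.00 to 39.3. This interval includes 0 and covers the counting of genes only, and without replicates the difference was not tested. The size of the difference also depended on the rule. It was 1.36 points with a score of at least 30, 2.17 with a window of 5 kb and 8.97 with a window of 2 kb. When each interval was given to the nearest end alone, it was 11.4 points over protein-coding genes and 8.29 over all genes. In the body, a comparison that was not planned, the order was the other way round. Any interval in the body was found in 6 of 23 G1/S genes and 0 of 32 mitotic genes, a difference of -26.1 points (-46.5 to -8.82), compared with 5.59% of all protein-coding genes. Of these 6 genes, however, 4 had a body interval within 1 kb of an annotated start, as described below. The body intervals of CCNE2 lay at an end of the neighbouring gene NDUFAF6. An interval in the body and not at an end was found in 5 of 23 G1/S genes and in 0 of 32 mitotic genes (Wilson interval up to 10.7%), compared with 4.06% of all protein-coding genes. With ends and body together, 11 G1/S genes (47.8%) and 14 mitotic genes (43.8%) had an interval, a difference of -4.08 points (-28.8 to 21.1). Of the genes in neither phase, CDK7, CCNH, CCNA2, CHEK1 and MKI67, 0 of 5 had an interval (Wilson interval up to 43.4%).

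Gene length can bear on the body count, as a longer gene has more room for an interval. The median length was 21787 bp for the G1/S genes, 27085 bp for the mitotic genes and 24115 bp for all protein-coding genes. The longest gene of the list, MAD1L1 with 417151 bp, is mitotic and had no interval. The 6 genes with a body interval had a median length of 58059.5 bp, compared with 27259 bp over the 60 genes, and protein-coding genes with an interval in the body alone had a median of 47356 bp. In the list, the median was thus higher for genes with any body interval. Among all protein-coding genes, it was higher for those with an interval in the body alone. The median of all protein-coding genes with any body interval was not computed. Within the list the lengths were split, however. CDKN1A (10870 bp), CDKN2C (13890 bp) and CCNE2 (16470 bp) were below the list median. RBL1 (99649 bp), CCND3 (115103 bp) and CDK6 (231653 bp) were above it. The part of length in the body count was not tested.

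Among cyclins and CDKs, 4 of 14 genes (28.6%, 11.7% to 54.6%) had an interval at an end. The share of all protein-coding genes, for this group and those that follow, was 15.5%. CDK4, the partner of D-type cyclins, carried a 460 bp interval scored 37 (chromosome 12, 57752256 to 57752715). It reached from 405 bp before the start to 54 bp after it, and thus spanned the start. CCNB1 encodes the cyclin that activates CDK1 at mitotic entry, and its interval (chromosome 5 from 69166836 to 69167067, score 27) ended 83 bp before the start. CCNB2, the second B-type cyclin, had an interval with a score of 25 from 44 to 249 bp after the start (chromosome 15 from 59105190 to 59105395). Hence both B-type cyclins had an interval of low score close to the start, on opposite sides of it.

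CCNE2, a cyclin E gene and the partner of CDK2, had the most intervals of any gene in the list. The 4 intervals lay on chromosome 8 between 94894885 and 94896774, with scores of 39, 80, 22 and 21 in order of position. The score of 80 was at percentile 99.0 of all intervals and was the highest at any of the 60 genes, but its midpoint lay 1252 bp inside the gene. All 4 midpoints were also within 1 kb of an end of NDUFAF6, an assembly factor of the respiratory chain, so that the intervals cannot be given to CCNE2 alone. CCNE1, the other cyclin E gene, had no interval within 2851707 bp.

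Body intervals were found at 2 further genes of this group. CCND3, a D-type cyclin, carried a 200 bp interval scored 30 (chromosome 6, 42048743 to 42048942). CDK6 had 2 intervals on chromosome 7, from 92833032 to 92833263 and from 92833349 to 92833617, with scores of 18 and 13. The score of 13 is the lowest in the list. CDK1, CDK2, CDK7, CCNA2, CCND1, CCND2, CCNE1 and CCNH had no interval. At CDK2, the nearest midpoint lay 1465 bp outside the gene (score 25), and at CCND1 it lay 4369 bp outside (score 14).

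Of the CDK inhibitors, 0 of 4 had an interval at an end (Wilson interval up to 49.0%), and 2 had one in the body. The shares of all protein-coding genes were 15.5% and 5.59%, and 4 genes are too few to be set against them. CDKN1A encodes p21, an effector of p53, and had 2 intervals on chromosome 6 with low scores, from 36678458 to 36678678 (score 13) and from 36680342 to 36680547 (score 17). The former also lay at an end of DINOL, a non-coding gene. CDKN2C, an inhibitor of CDK4 and CDK6, carried a 376 bp interval scored 27 (chromosome 1, 50968322 to 50968697). CDKN1B and CDKN2D had none.

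Among E2F factors, their DP partners and pocket proteins, 3 of 10 genes had an interval at an end, and 2 of these were activator E2Fs. E2F1 carried a 452 bp interval scored 62 (chromosome 20, 33685893 to 33686344), which ran from 41 to 492 bp after the start. At E2F2, the interval (chromosome 1, 23530682 to 23530904) was scored 57 and ran from 329 to 551 bp after the start. TFDP1, the DP partner of E2F proteins, had an interval of low score, 17, from 379 to 46 bp before the start (chromosome 13 from 113584309 to 113584642). RBL1, which encodes the pocket protein p107, differed from these. Its interval of 1091 bp (chromosome 20 from 37039071 to 37040161, score 45) lay deep in the gene, 43267 bp from the nearer end. It was the line of the list whose digits had been split by separators. E2F3, E2F4, E2F5, E2F6, TFDP2 and RBL2 had no interval, and the nearest one was 11422 bp away or farther.

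Among regulators of CDK phosphorylation, 2 of 5 genes (40.0%, 11.8% to 76.9%) had an interval at an end. CDC25A, a phosphatase that activates CDK2, had the highest score of all end intervals of the 60 genes. Its interval of 696 bp (chromosome 3 from 48187576 to 48188271) was listed on 2 lines with scores of 67 and 21 and ran from 146 to 841 bp after the start. WEE1, the kinase that restrains CDK1, carried a 486 bp interval (chromosome 11, 9573158 to 9573643) outside the low-coordinate end of the gene, with scores of 58 and 34 on its lines. CDC25B, CDC25C and PKMYT1 had none, and at PKMYT1 the nearest midpoint was 4075 bp outside the gene. The phosphatase of the G1/S transition and the kinase of mitotic entry were thus both among the genes with the highest scores.

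Both Aurora kinases had an interval at an end. AURKA, which acts at spindle poles, carried an interval scored 37 (chromosome 20, 56392328 to 56392544), and it was also at an end of CSTF1, an RNA processing factor. AURKB, the kinase of the chromosomal passenger complex, carried one scored 27 (chromosome 17, 8210352 to 8210557), from 18 to 223 bp after the outer end of the gene and 205 bp before the nearest annotated start by its midpoint. PLK1, a kinase required for several steps of mitosis, had no interval within 529740 bp.

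Of the spindle checkpoint genes, 2 of 6 had an interval, namely the related kinase genes BUB1 and BUB1B. The BUB1B interval (chromosome 15 from 40161011 to 40161261) was scored 56, at percentile 92.03 of the list. That of BUB1 (chromosome 2 from 110677897 to 110678120) was scored 15, at percentile 6.04, and lay also at an end of the non-coding gene LOC105373554. Both intervals spanned the start, BUB1B from 58 bp before to 192 bp after and BUB1 from 57 bp before to 166 bp after. The position was therefore nearly the same, while the scores were close to opposite ends of the list. BUB3, MAD1L1, MAD2L1 and TTK had none.

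The anaphase complex is the ubiquitin ligase that triggers chromosome separation. Of its subunit and activator genes, 4 of 12 (33.3%, 13.8% to 60.9%) had an interval at an end. These were FZR1, which encodes the activator used in late mitosis and G1, and the subunit genes CDC27, ANAPC2 and ANAPC7. All 4 scores were below the median of the list, at 27, 27, 29 and 23. The FZR1 interval lay on chromosome 19 from 3506132 to 3506331 and the CDC27 interval on chromosome 17 from 47189098 to 47189297, and both spanned the start. The ANAPC7 interval (chromosome 12 from 110403191 to 110403418) lay inside the gene. The ANAPC2 interval (chromosome 9 from 137189031 to 137189340) lay 625 bp outside and was also at an end of SSNA1, while that of CDC27 was also at an end of MYL4. CDC20, ANAPC1, ANAPC4, ANAPC5, ANAPC10, ANAPC11, CDC16 and CDC23 had none.

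Among the remaining mitotic genes, 3 of 4 had an interval at an end. With MKI67, which belongs to neither phase, this group had 3 of 5 (60.0%, 23.1% to 88.2%), compared with 15.5% of all protein-coding genes. FOXM1, a transcription factor for mitotic genes, carried a 489 bp interval scored 41 (chromosome 12, 2876698 to 2877186), also at an end of RHNO1. KIF23 and PRC1, which build the central spindle used in cytokinesis, had scores of 50 (chromosome 15 from 69414130 to 69414375) and 45 (chromosome 15 from 90994586 to 90995044). The KIF23 interval spanned the start and that of PRC1 ended 51 bp before it. Each was also at an end of a non-coding gene, KIF23-AS1 and LOC124903556. KIF11, a motor that separates spindle poles, had none.

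**Figure D2:**
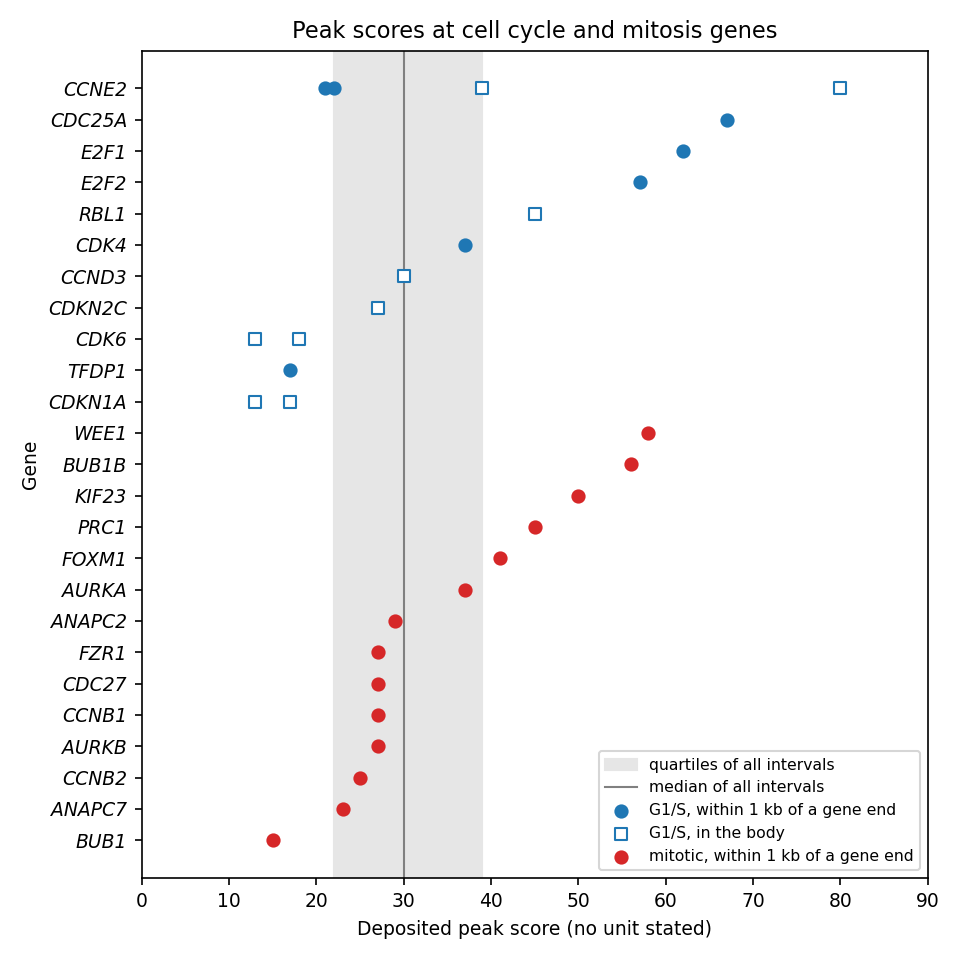
Deposited score (no unit stated) of each interval at the 25 genes that had one, G1/S genes in blue and mitotic genes in red. Filled circles are intervals within 1 kb of a gene end and open squares are intervals in the body. The grey band runs from 22 to 39, the quartiles of all intervals, and the line is their median of 30. The body intervals belong to G1/S genes, and the scores of both phases spread to both sides of the band.

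The scores of the genes were within the usual range of the list. Taking the highest end score per gene, the median over the 20 genes was 33, which was also the median over all 3100 protein-coding genes with an end interval. The median was 47 for the 6 G1/S genes (range 17 to 67) and 28 for the 14 mitotic genes (range 15 to 58), and the ranges overlapped. With a score of at least 30, 4 G1/S genes and 6 mitotic genes remained, 10 of 60 in all (16.7%, 9.31% to 28.0%). The share of all protein-coding genes was 9.50%, which lay inside this interval. The 10 were CDC25A, E2F1, E2F2, CDK4, WEE1, BUB1B, KIF23, PRC1, FOXM1 and AURKA. The median width of the end intervals was 232 bp, compared with 282 bp over all end intervals.

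Which end of the gene carried the interval was known for the 49 genes with a strand and a promoter window in RefSeq. CDK2, CCND1, CCND2, CCNE2, WEE1, PKMYT1, E2F5, AURKA, BUB3, TTK and FOXM1 had no entry. Of the 49 genes, the start carried one within 1 kb in 16 (32.7%) and 0 had one within 1 kb of the far end, which allows a share of up to 6.12%. Over 15843 protein-coding genes with a window, the shares were 15.1% at the start and 1.15% at the far end. The midpoint of the 16 intervals lay before the start in 7 genes and after it in 9, and 6 intervals spanned the start. The median distance of the midpoint from the start was 187 bp, with a range from 55 to 625 bp. At E2F1, E2F2 and CDC25A the whole interval lay after the start, inside the gene. Among the mitotic genes this was also seen at CCNB2 and ANAPC7, and at AURKB when its outer start is used.

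**Figure D3:**
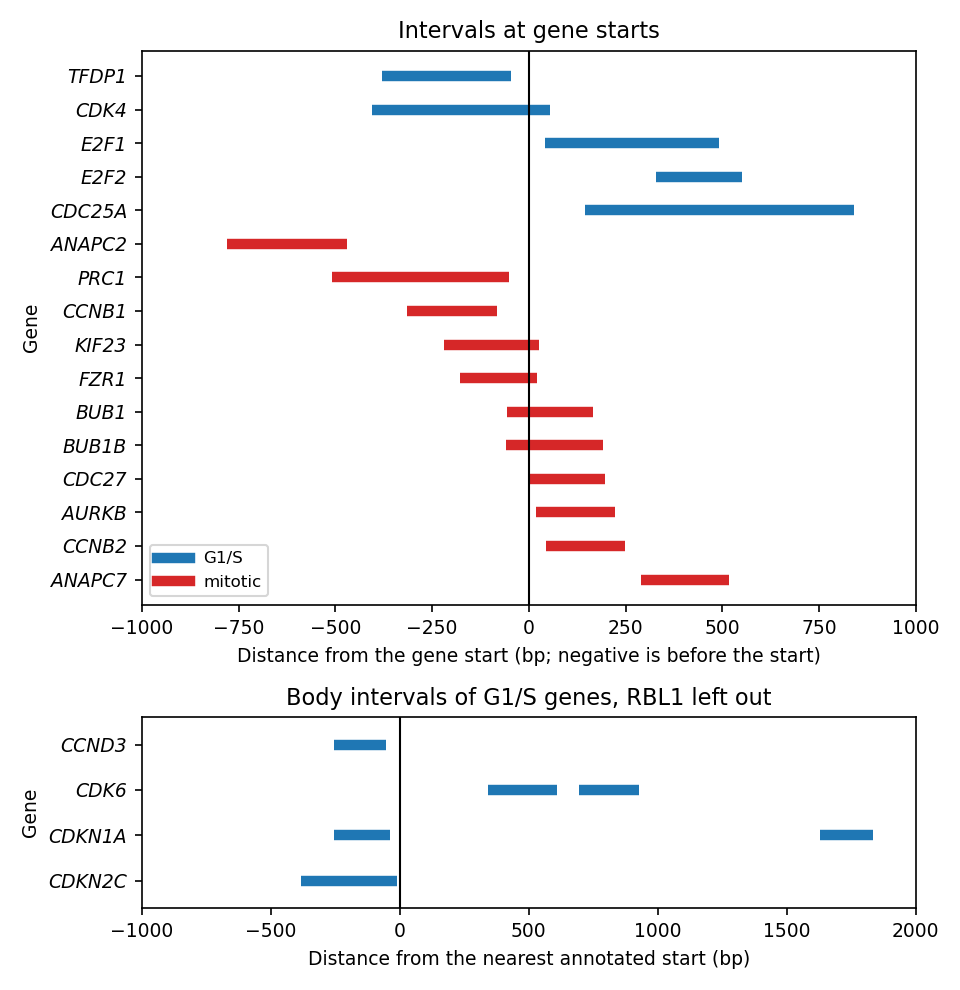
Extent of the intervals relative to the start of the gene, in bp, with genes on the vertical axis. The upper panel gives 16 genes with an interval at the gene start, and the lower panel gives the body intervals of CCND3, CDK6, CDKN1A and CDKN2C relative to the nearest annotated start (the RBL1 interval is 56381 bp away and is not drawn). Bars of the upper panel lie near the start, as the rule of 1 kb sets, with E2F1, E2F2 and CDC25A to the right of it. In the lower panel, CCND3, CDKN2C and CDKN1A have a bar just before the start. The bars of CDK6 and the other bar of CDKN1A lie after it.

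The body intervals were next set against internal starts, since RefSeq lists more than 1 start for some genes. For CDKN1A it lists 1 start, which lies inside the outer end of the gene. Of the G1/S genes with a body interval and a window, 4 had at least 1 such interval within 1 kb of an annotated start. The midpoint was 154 bp before a start in CCND3, 146 bp before in CDKN1A, 197 bp before in CDKN2C, and 476 and 812 bp after in CDK6. The other interval of CDKN1A lay outside this window, 1730 bp after the start. The 4 genes were hence counted as body because the outer end of the gene was farther away. When any annotated start was used in place of the gene ends, 9 of 18 G1/S genes (29.03% to 70.97%) and 11 of 26 mitotic genes (42.3%, 25.5% to 61.1%) had an interval. The difference turned to -7.69 points (-34.5 to 20.4), so the order of the phases at gene ends depended on which starts were counted. Over the 49 genes the share was 40.8%, compared with 16.3% of the 15843 protein-coding genes. This count was chosen after the body intervals had been seen. Whether intervals lay in exons or introns could not be told, as the tables give no exons.

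Some intervals were shared with a neighbouring gene. Of the 20 genes with an end interval, 5 had it also within 1 kb of an end of another protein-coding gene (CCNE2 with NDUFAF6, AURKA with CSTF1, CDC27 with MYL4, FOXM1 with RHNO1 and ANAPC2 with SSNA1). A further 3 had it at an end of a non-coding gene alone, and 12 had no other gene end within 1 kb. Over all protein-coding genes with an end interval, 31.3% shared it with another coding gene. Without the shared intervals, 10 mitotic genes and 5 G1/S genes remained, a difference of 9.51 points.

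The genes were unevenly spread over the chromosomes. All 4 genes on chromosome 15 (BUB1B, CCNB2, KIF23 and PRC1) had an interval at an end, and 23.01% of all protein-coding genes on that chromosome did. Without them, 10 of 28 mitotic genes had an interval (35.7%) and the difference to the G1/S genes was 9.63 points (-15.7 to 32.5). Conversely, 0 of 4 genes on chromosome 4 (CCNA2, MAD2L1, ANAPC4 and ANAPC10) had an interval at an end, where the share of protein-coding genes was 4.94%. The nearest interval to MAD2L1 was 18708070 bp away and that to CCNA2 was 17353108 bp away. On chromosomes 6, 10 and 16, 0 of 4 genes each had an interval at an end. These were CCND3, CDKN1A, E2F3 and TTK on chromosome 6, of which CCND3 and CDKN1A had body intervals. On chromosome 10 they were CDK1, BUB3, KIF11 and MKI67, and on chromosome 16 PKMYT1, RBL2, E2F4 and PLK1. The share of protein-coding genes with an end interval was 15.1%, 13.2% and 18.1% there. The part of the chromosome in the counts was not tested. In all, 17 of the 35 genes without an interval had the nearest one over 100 kb away, and 4 had it within 5 kb (CDK2, CCND1, PKMYT1 and CDC20). These distances were not computed for all protein-coding genes, so whether they are unusual cannot be told.

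Base composition also moved with the intervals. Among protein-coding genes, the share with an end interval was 4.34% in the lowest of 4 bins of window GC content, then 12.4%, 21.5% and 25.7% with rising GC. The 49 genes had a median GC content of 62.7%, equal to that of all windows, and 12 of them were in the highest bin. Their share with an end interval was 2 of 4, 6 of 22, 4 of 11 and 4 of 12 in the same order of bins. In each bin it was thus above the share of all genes, with few genes behind each value. The median GC content was 64.8% for the G1/S genes and 62.5% for the mitotic genes.

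The promoter windows of 300 bases (250 before and 50 after the start) were then searched for the letters given above, 1 window per gene. An E2F site was found in 6 of 18 G1/S windows (33.3%) and 3 of 26 mitotic windows (11.5%), compared with 3.76% of all 15843 windows. The cell cycle homology region was found in 2 G1/S windows (11.1%) and 12 mitotic windows (46.2%), compared with 12.2% of all windows. A CCAAT box was found in 33.3% of the G1/S, 61.5% of the mitotic and 36.4% of all windows. E2F letters were thus more frequent in the G1/S windows and the other 2 motifs in the mitotic ones, which was not tested. The arm of the X-box was in 11.1% of the G1/S, 15.4% of the mitotic and 12.6% of all windows, and the full X-box palindrome was in 0 of the 49 windows and 0.0694% of all. CCAAT and GTTGCC can overlap by their shared letters.

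**Figure D4:**
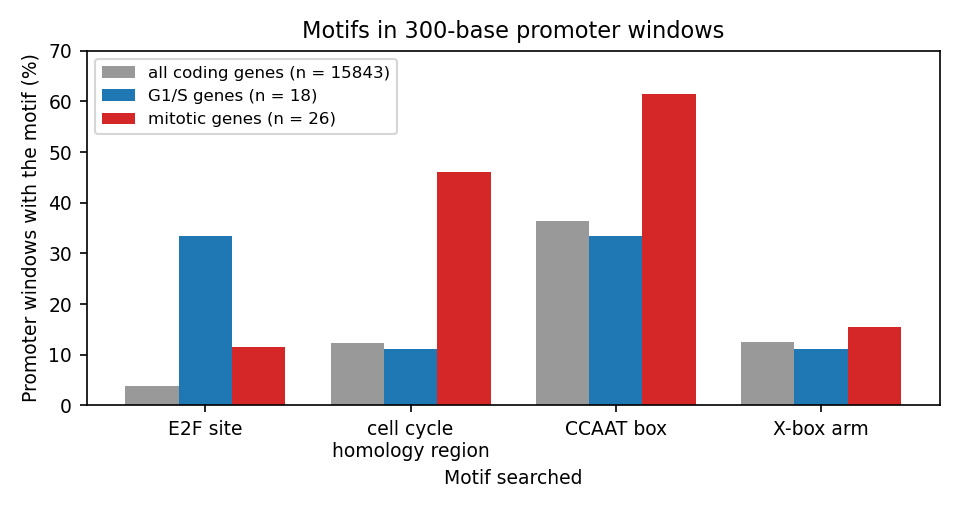
Share of 300-base promoter windows, in percent, with each motif on either strand, for all protein-coding genes (grey), G1/S genes (blue) and mitotic genes (red). E2F sites were most frequent in G1/S windows (33.3%), the cell cycle homology region in mitotic windows (46.2%), and the X-box arm was between 11.1% and 15.4% in all 3 groups.

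With respect to the peaks, an E2F site was present in 4 of 16 windows with an end interval (CDC25A, E2F1, E2F2 and TFDP1) and in 5 of 33 without one. The cell cycle homology region was present in 6 of 16 and 9 of 33, and a CCAAT box in 9 of 16 and 16 of 33. The arm of the X-box was present in 1 of 16, CDC27, and in 6 of 33 (CDK7, CDKN2D, E2F6, CDC20, ANAPC10 and CDC16). Over 2519 protein-coding windows with an end interval, the E2F site was in 5.24% and the homology region in 7.03%. The CCAAT box was in 36.6% of these and the X-box arm in 12.5%. The shares of all windows were 3.76%, 12.2%, 36.4% and 12.6% in the same order. For the homology region, the direction was thus opposite to that in the list. These shares were not tested. Of the 28 motif copies before the start in the 16 genes, 7 lay wholly inside the interval. These were CCAAT boxes in CCNB1, AURKB, BUB1 and KIF23, the cell cycle homology region in BUB1B and KIF23, and the E2F site of TFDP1. The X-box arm of CDC27, 130 bp before the start, lay outside its interval. A match of letters is a description and not a binding site.

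To place the 60 genes among their pathway, 87 other cell cycle genes were looked up by the same rule. An interval at an end was found at 22 of them (25.3%, 17.3% to 35.3%), compared with 15.5% of all protein-coding genes. Among other G1/S regulators, 7 of 18 had one (38.9%, 20.3% to 61.4%), including the CDK inhibitor genes CDKN1C and CDKN2B, the ubiquitin ligase genes SKP1, RBX1 and FBXW7, the repressor gene E2F7 and the p53 antagonist gene MDM2. The highest score in this set was 76, at SKP1. In the G2 and damage checkpoint set, 6 of 16 had one (37.5%, 18.5% to 61.4%), namely ATM, ATR, GADD45A, GADD45B, SFN and ENSA, with the highest score of 79 at SFN. In the set of MYB and DREAM complex genes, 2 of 7 had one (MYBL1 and MYBL2; 8.22% to 64.1%). Of the other anaphase complex parts, 3 of 6 had one (18.8% to 81.2%), ANAPC13, ANAPC16 and CDC26, with highest scores of 32, 17 and 29.

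In the kinetochore and spindle set, 2 of 19 had an interval at an end (10.5%, 2.94% to 31.4%), SPC24 and ZW10. In the cohesin and separase set 2 of 12 had one (16.7%, 4.70% to 44.8%), STAG1 and PDS5A. Both intervals included the 15.5% of all protein-coding genes. In the chromosomal passenger and cytokinesis set, 0 of 9 had one (Wilson interval up to 29.9%), although AURKB, KIF23 and PRC1 of the 60 genes act in the same steps. SKP2, CDC14A and MAD2L2 had an interval in the body alone. These sets differ in size and were not tested against each other.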

How the data were processed

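ChIP-seq of HA-RFX6 was done in MHCC-97H cells, after formaldehyde fixation, and the study's ChIP methods name an anti-HA antibody. The authors called peaks with MACS2 2.1.0.2, and whether the input served as control is not stated. The aligner is not given in the sources used here. The deposited file lists intervals with a whole-number score of unstated meaning, which was used for ranking and filtering. Its 6214 lines held 5022 distinct intervals, each given its highest score, and 3 mitochondrial ones were set aside. Starts were read as 0-based and printed 1-based. The input has no processed file among those used here.

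Genes came from RefSeq (GRCh38.p14), and starts, strands and sequences from its promoter windows. The 60 genes and the gene sets were chosen with earlier results of these data known, and phases were assigned from general knowledge. All genes with an interval were to be named. Shares carry Wilson intervals and differences carry Newcombe intervals at 95%, which cover counting error only. Limits for counts of 0 are upper Wilson limits, except at the far end of genes, where the limit is 3 counts of the total. Alternatives were score filters, merging, windows, overlap by 1 bp, nearest-end assignment, the start alone and moves by 20 kb. Any annotated start, leaving out chromosome 15 and leaving out shared intervals were alternatives chosen after seeing the data. The comparison of the phases in the body alone was not planned. The look-up was tested on simulated intervals. Python 3.11.15, numpy 2.4.6, pandas 2.3.3 and matplotlib 3.10.9 were used.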

Additional observations from a re-analysis of the deposited data

How the results depend on the processing

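The count of 20 genes with an interval at an end stayed between 15 and 27 in 11 of 14 alternatives. Not all of these were over 60 genes. The start alone gave 16 of 49 genes and any annotated start 20 of 49, the latter with 4 genes gained and 4 lost. Without chromosome 15, this count and the next were over 56 genes. The count at ends was 10 with a score of at least 30. It fell to 4 and 3 when intervals were shifted by 20 kb to lower and higher coordinates. The count of 25 genes with ends and body together stayed between 19 and 29 in 10 of 12 alternatives. It was 13 with a score of at least 30 and 10 after the upward move. After the downward move it was 22, close to the count without a move, and the cause was not tested.

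The difference between mitotic and G1/S genes at gene ends, 17.7 points, kept its sign in 12 of 14 alternatives, from 1.36 (score of at least 30) to 18.9 points (score of at least 20), and it was under 10 points with wider windows, the nearest end of any gene, without chromosome 15 or without shared intervals. It was -7.69 with any annotated start and -2.45 after the downward move. With ends and body together, the difference of -4.08 kept its sign in 9 of 12 alternatives. It was 5.84 with a score of at least 20, since 3 G1/S genes but 1 mitotic gene had scores below that, and 1.49 and 1.36 after the moves, for which the cause was not tested. The 95% interval included 0 in every alternative for both of these differences. The difference in the body alone was not run through the alternatives, but the counts above bear on it. With a window of 5 kb, 11 G1/S genes had an interval at an end and 13 at an end or in the body. For the mitotic genes, both counts were 16. After the downward move, these counts were 2 and 9 for the G1/S genes and 2 and 13 for the mitotic genes. The contrast in the body thus depended on the rule. No paired analysis was possible because a single ChIP library was analysed, and no replicate could be left out. As depth is unknown, a missing interval may reflect few reads.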
